A study of Mus musculus with 2 samples.

Results

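The LIF receptor to STAT3 pathway was followed through 9 genes, taken by name from the 22556 genes of one count table: Lif, Lifr, Il6st, Jak1, Jak2, Tyk2, Stat3, Socs3 and Ptpn11. All 9 were found by an exact match of the gene symbol, and the rule that takes them uses names and no measured value, although it was written with earlier results of these data known. The table holds polyadenylated RNA from 2 libraries of the iXist-ChrX-Dom line, female mouse embryonic stem cells (mESCs) of Dom/129S x Cast origin. Both libraries carry the same engineered allele, a TetOn promoter in place of the endogenous Xist promoter on the Dom/129S X chromosome, and both are untreated, at 0 h, so that Xist had not been induced. The cells grew in serum with conditioned medium holding LIF equivalent to 1000 U/mL. The inactivated mouse fibroblasts used as feeders were depleted by pre-plating, in which they attach preferentially, so some may have remained. The line is a single clone, and nothing in the labels says whether the 2 libraries come from separate cultures, so their spread may be technical. Only 1 group exists, and the questions here are therefore which genes of the pathway were expressed before Xist induction, at what level, and how well the 2 libraries measured them.

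LIF is a cytokine of the interleukin-6 family that keeps mESCs self-renewing in serum. It binds LIFR, which pairs with the shared signalling chain gp130, encoded by Il6st. Janus kinases bound to both chains phosphorylate tyrosines on the receptor tails, STAT3 docks there, is phosphorylated in turn, and enters the nucleus as a dimer to activate its target genes. SOCS3, itself a STAT3 target, binds gp130 and the kinases and closes a negative feedback loop. The phosphatase SHP2, encoded by Ptpn11, docks on the same receptor chains, restrains STAT3 and couples the receptor to RAS and ERK. The activity of this pathway lies in phosphorylation, which RNA counts do not measure.

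Replicate 1 held 23716499 counts and replicate 2 held 20275749, and a count of 0 then allows up to 0.126 and 0.148 counts per 1000000 (CPM). The expected cell type was present: 14 of 15 ES cell markers reached a mean of 10 TPM (transcripts per kilobase, scaled to 1000000 in each library), with summed levels of 10097 TPM in replicate 1 and 7682 TPM in replicate 2. One label field calls the cells mESC to NPC, but the neural precursor genes Sox1 and Olig2 had 0 counts in both libraries, and 2 of 10 neural precursor markers reached 10 TPM, namely Slc1a3 at 17.6 TPM and Nes at 12.9 TPM. Of 20 fibroblast markers, 3 reached 10 TPM, namely Fn1, Sparc and Twist1, and their summed level was 153 and 142 TPM. Col1a1, Col1a2 and Col3a1 had between 0 and 9 counts in each library, and Lum had 0 in both. Col5a1 had 128 and 71 counts and Thy1 had 32 and 2. These list values use span TPM, defined next.

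Levels are given on 2 scales that both divide by a length. Span TPM uses the length deposited with the counts, which runs over introns as well as exons, and exonic TPM uses the union of the annotated exons of each gene. The choice matters for this pathway, because exons make up 77.8% of the span of Socs3 but only 4.33% of the span of Jak1. On the span scale 6 of 9 members reached a mean of 10 TPM, against 29.6% of all genes. On the exonic scale 7 of 9 did, against 34.1% of all genes. At least 1 TPM was reached by 8 of 9 members on each scale, against 52.7% of genes with span length and 55.3% with exonic length. At least 50 span TPM was reached by 1 member, Socs3, against 13.0% of all genes. The median member stood at 13.1 span TPM and 27.5 exonic TPM, and the median gene of the table at 1.35 span TPM and 1.85 exonic TPM. The members that stayed below 10 TPM on both scales were Tyk2 and Lif, and Stat3 passed that level on the exonic scale only.

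**Figure D1:**
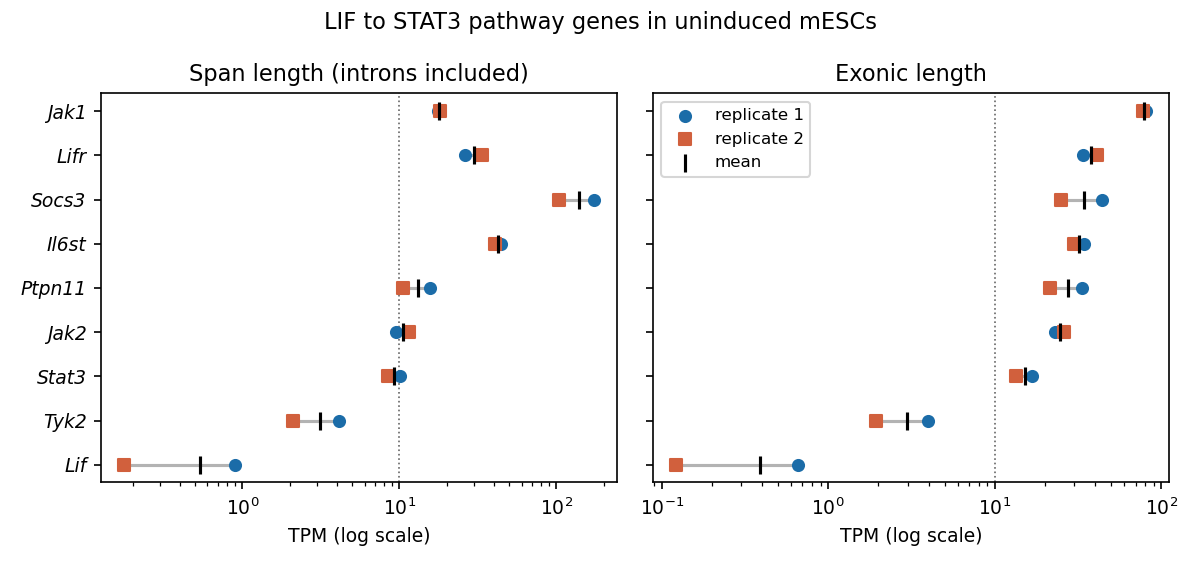
TPM of the 9 members on a log axis, with span length on the left and exonic length on the right. Circles are replicate 1, squares are replicate 2, the black tick is their mean, grey lines join the 2 libraries and the dotted line marks 10 TPM. Socs3 leads with span length at 139 TPM and Jak1 leads with exonic length at 79.1 TPM, while Tyk2 and Lif are the lowest on both scales.

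The order of the members depended on the length. With span length it ran Socs3, Il6st, Lifr, Jak1, Ptpn11, Jak2, Stat3, Tyk2 and Lif. Neighbours whose libraries overlapped were Ptpn11 with Jak2 and Jak2 with Stat3, and all other neighbours were apart in both libraries. With exonic length it ran Jak1, Lifr, Socs3, Il6st, Ptpn11, Jak2, Stat3, Tyk2 and Lif. From Lifr to Jak2 the libraries of each pair of neighbours then overlapped. Within this block the range of Lifr lay wholly above those of Ptpn11 and Jak2, and that of Il6st above that of Jak2, and the other ranges overlapped. Library by library, Socs3 and Il6st were also each above Ptpn11 in both. Jak1 at the top, and Stat3, Tyk2 and Lif at the bottom, were each apart from the next member in both libraries. With 2 libraries no test between the levels of 2 genes was made.

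The ligand was close to undetected. Lif (mm10, chromosome 11, 4257567 to 4272514, plus strand) had 20 counts in replicate 1 and 3 counts in replicate 2. That is 0.843 CPM (95% Clopper-Pearson interval 0.515 to 1.30) and 0.148 CPM (0.0305 to 0.432), and the second value equals what a count of 0 allows. Its mean was 0.540 ± 0.512 span TPM (SD, n = 2) and 0.390 ± 0.378 exonic TPM, and 42.5% of all genes had a lower mean span TPM. Replicate 1 was the higher library and the counting intervals did not overlap. The log2 ratio of replicate 2 over replicate 1, taken on CPM after adding 0.5 counts, was −2.32, with a counting interval of −4.90 to −0.76 (exact binomial test, adjusted p = 0.00263). Lif is also made by fibroblasts. Of the fibroblast markers Fn1 had 7455 and 6096 counts, Sparc 1411 and 612, Col5a1 128 and 71, Twist1 111 and 95 and Thy1 32 and 2. Col1a1, Col1a2 and Col3a1 were near 0 and Lum was at 0. The part of remaining feeder cells in the Lif counts was not tested.

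The other ligands of the family were low as well. None of the 10 ligand genes reached 10 TPM on either scale, and the list had a median of 0.346 span TPM and 0.362 exonic TPM. The highest on the exonic scale were Ctf2, at 2.52 ± 0.447 TPM (SD, n = 2), and Ctf1, which encodes cardiotrophin 1, at 2.25 ± 1.55 TPM. Osm, the gene of oncostatin M, had 24 and 8 counts, or 0.994 ± 0.582 exonic TPM. Il11 had 7 and 5 counts and Il6 had 1 and 0. Clcf1 had 2 and 1 counts. Il27 had 0 counts in both libraries. Cntf also had 0 counts, but Zfp91Cntf spans the whole gene in the same orientation and fragments that fall on both are left uncounted, so its level could not be read here.

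Both chains of the LIF receptor were well expressed. Lifr (chromosome 15, 7129571 to 7197489, plus strand) had 2648 and 2594 counts, which is 112 CPM in replicate 1 and 128 CPM in replicate 2. Il6st (chromosome 13, 112464069 to 112506860, plus strand) had 2839 and 1974 counts, which is 120 CPM and 97.4 CPM. In exonic TPM, Lifr stood at 33.9 and 41.3, a mean of 37.6 ± 5.23 (SD, n = 2), and Il6st at 34.4 and 29.8, a mean of 32.1 ± 3.29. Within a library the ratio of Il6st to Lifr was 1.01 in replicate 1 and 0.720 in replicate 2 on this scale. On the span scale the means were 30.0 ± 5.32 TPM for Lifr and 42.8 ± 2.76 TPM for Il6st, and the ratio was 1.70 and 1.21. With exonic length neither receptor mRNA was the higher in both libraries, and with span length Il6st was.

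The table counts Lifr over a pair of annotated starts that lie on the same strand, and a fragment is assigned to the gene whichever start it came from. The 250 bases before each start are shown because they differ in composition although their transcripts share 1 count. They come from RefSeq on GRCm38.p6, plus strand, and are written 5′ to 3′. The RefSeq gene span of Lifr begins further upstream, at 7090610, and first and second refer here to the starts in the table alone. The first window, chr15:7129322-7129571, holds 43 CpG dinucleotides and has a GC content of 82.4%. The second, chr15:7140292-7140541, holds 3 CpG dinucleotides and has a GC content of 50.8%. The 300-base promoter window at the first start is richer in GC than 99.3% of the 32851 promoters in the RefSeq table, and that at the second start is richer than 51.4%. How the counts divide between the starts was not measured.
Lifr first start: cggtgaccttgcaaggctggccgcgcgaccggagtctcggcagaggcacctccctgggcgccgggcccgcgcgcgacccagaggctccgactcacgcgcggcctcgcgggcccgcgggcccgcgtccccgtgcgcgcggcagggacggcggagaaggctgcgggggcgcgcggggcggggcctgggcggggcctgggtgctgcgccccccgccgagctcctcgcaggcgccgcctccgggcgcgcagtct
Lifr second start: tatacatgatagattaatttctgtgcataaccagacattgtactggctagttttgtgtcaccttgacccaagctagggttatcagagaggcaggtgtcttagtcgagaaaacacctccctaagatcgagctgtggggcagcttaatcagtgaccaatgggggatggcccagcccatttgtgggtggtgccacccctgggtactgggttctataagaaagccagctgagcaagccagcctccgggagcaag

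The receptors that pair with gp130 for other cytokines were far lower. Osmr, the oncostatin M receptor, had 21 and 23 counts, and the exonic TPM of Lifr was 66.7 times that of Osmr in replicate 1 and 59.6 times in replicate 2. Il6ra, the interleukin-6 receptor, had 22 and 21 counts, or 0.370 ± 0.0448 exonic TPM (SD, n = 2). Il27ra had 25 and 8 counts, and Cntfr, the receptor of ciliary neurotrophic factor, had 0 and 1. Il11ra1, the interleukin-11 receptor, had 44 and 8 counts, and these are uncertain because a near-identical copy of the gene exists. Of 7 receptor genes, 2 reached 10 TPM on each scale, and these were Lifr and Il6st.

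Among the Janus kinases Jak1 was the highest. Jak1 (chromosome 4, 101151973 to 101265282, minus strand) had 2963 and 2309 counts, and Jak2 (chromosome 19, 29251802 to 29313080, plus strand) had 868 and 792. Tyk2 (chromosome 9, 21104067 to 21131275, minus strand) had 166 and 65 counts. In exonic TPM, Jak1 stood at 80.3 and 77.9, a mean of 79.1 ± 1.76 (SD, n = 2), higher than 87.7% of all genes. Jak2 stood at 23.0 and 26.0 exonic TPM, a mean of 24.5 ± 2.19. Tyk2 stood at 3.97 and 1.93 exonic TPM, a mean of 2.95 ± 1.44. The libraries of the 3 kinases did not overlap on this scale.

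Within a library, the exonic TPM of Jak1 was 3.50 and 2.99 times that of Jak2 in replicates 1 and 2, and 20.2 and 40.3 times that of Tyk2. On the span scale the same order held with smaller distances, at 17.8 ± 0.288 TPM for Jak1 (SD, n = 2), 10.5 ± 1.34 for Jak2 and 3.11 ± 1.41 for Tyk2. Jak3, the kinase that pairs with the common gamma chain of lymphoid cytokine receptors and is no part of the LIF receptor, had 28 and 12 counts, or 0.639 ± 0.275 exonic TPM. Part of Jak3, 1327 bp of its 14196 bp span, overlaps Insl3 in the same orientation and is not counted.

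Stat3, which encodes the transcription factor that carries the signal to the nucleus, was expressed at a moderate level. Stat3 (chromosome 11, 100886809 to 100939511, minus strand) had 788 and 506 counts, which is 33.2 CPM in replicate 1 and 25.0 CPM in replicate 2. It stood at 16.8 and 13.4 exonic TPM, a mean of 15.1 ± 2.40 (SD, n = 2), and at 9.29 ± 1.12 span TPM. Per exonic length it was 0.209 and 0.173 times the level of Jak1 within a library. Its libraries lay above those of Tyk2 and below those of Jak2 on the exonic scale.

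Stat3 was not the highest STAT gene. Stat6, which interleukin-4 signalling uses, stood at 25.9 ± 1.69 exonic TPM (SD, n = 2) and was above Stat3 in both libraries. Stat4, which is best known from interleukin-12 signalling in lymphocytes, stood at 20.7 ± 2.03 exonic TPM, also above Stat3 in both libraries. With span length Stat4 was below Stat3 in both libraries, at 3.42 ± 0.205 TPM, so the order of this pair depended on the length. Stat2, which takes part in type I interferon signalling, stood at 9.95 ± 3.81 exonic TPM. Stat5b was at 4.59 ± 0.0677 and Stat5a at 1.42 ± 0.596 exonic TPM, 2 closely related genes whose counts are uncertain for that reason.

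Socs3, the feedback inhibitor, was the member with the highest span TPM and the member whose 2 libraries lay furthest apart in absolute TPM. Relative to their means, the libraries of Lif and Tyk2 lay further apart. Socs3 (chromosome 11, 117966086 to 117969366, minus strand) had 842 and 386 counts, which is 35.5 CPM (95% Clopper-Pearson interval 33.1 to 38.0) and 19.0 CPM (17.2 to 21.0). Replicate 1 was the higher library. Socs3 stood at 173 and 104 span TPM, a mean of 139 ± 48.7 (SD, n = 2), higher than 94.5% of all genes. With exonic length it stood at 43.9 and 25.0 TPM, a mean of 34.5 ± 13.3, higher than 79.2% of all genes. Within a library its exonic TPM was 2.61 and 1.86 times that of Stat3.

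Of the 8 SOCS genes, 4 reached 10 TPM on each scale. Socs2, best known as a brake on growth hormone signalling, was the highest, at 107 ± 2.49 exonic TPM (SD, n = 2) and 281 ± 17.3 span TPM. It was above Socs3 in both libraries, by 2.41 and 4.36 times in exonic TPM. Socs6 followed at 71.7 ± 11.3 exonic TPM, and it was above Socs3 with exonic length and below it with span length in both libraries. Socs4 stood at 15.0 ± 1.35, Socs7 at 8.58 ± 2.22 and Socs5 at 6.55 ± 0.243 exonic TPM. Socs1, which like Socs3 blocks Janus kinases directly, had 20 and 10 counts, or 0.742 ± 0.245 exonic TPM. Cish, a target of STAT5, had 9 and 4 counts. The counts of Socs6 and Socs2 may share reads with copies, since 11.7% and 7.23% of the 50-base words of their longest transcripts also occur in annotated pseudogene transcripts. For all 9 members of the pathway this share was 0.

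The promoter of Socs3 is shown because it is the only member promoter that holds the STAT motif TTCNNNGAA, a palindrome in which N is any base. The sequence runs over the 250 bases before the start in the RefSeq promoter table (GRCm38.p6, minus strand, chr11:117969367-117969616), written 5′ to 3′ with the motif in capitals. The deposited span ends at the same start, whereas the RefSeq gene span runs on to 117970336 and so takes in this window. The motif, TTCTTAGAA, spans positions −154 to −146 from the start in that table. Of 32851 promoter windows of 300 bases in the RefSeq table, 8.30% hold at least 1 such match. Of the 63 pathway genes listed, 47 had a promoter in the table, and Socs3, Cish, Gab1, Sgk1 and Zfp36 held a match, which is 5 of 47. Counted by window, as for all promoters, it was 6 of 68, or 8.82%. A match of letters is no measure of STAT3 binding, and no binding was measured.
Socs3 promoter: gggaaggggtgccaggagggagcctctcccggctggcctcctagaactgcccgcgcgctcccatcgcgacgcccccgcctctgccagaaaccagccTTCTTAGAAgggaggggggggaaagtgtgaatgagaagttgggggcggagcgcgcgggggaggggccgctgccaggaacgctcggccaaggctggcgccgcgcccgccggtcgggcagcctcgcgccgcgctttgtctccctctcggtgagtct

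Ptpn11 (chromosome 5, 121130532 to 121191397, minus strand) had 1415 and 725 counts, which is 59.7 CPM and 35.8 CPM. Replicate 1 was again the higher library. It stood at 33.6 and 21.4 exonic TPM, a mean of 27.5 ± 8.61 (SD, n = 2), and at 13.1 ± 3.63 span TPM. Ptpn2, a phosphatase that removes phosphate from Janus kinases and STATs, was higher in both libraries, by 5.31 and 9.28 times in exonic TPM, with a mean of 188 ± 14.3. Ptpn1, a related phosphatase of the endoplasmic reticulum, stood at 11.4 ± 4.79 exonic TPM, and Ptpn11 exceeded it by 2.27 and 2.67 times. Ptpn6, the relative of Ptpn11 that prevails in blood cells, had 38 and 14 counts. On the span scale 2 of these 4 phosphatase genes reached 10 TPM, and on the exonic scale 3 did.

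Genes known as STAT3 targets in mESCs ranged from 1.28 to 5047 TPM in the mean with span length. Of 14 such genes, 10 reached 10 span TPM and 9 reached 10 exonic TPM, with medians of 41.5 span TPM and 26.0 exonic TPM. With span length the highest were Mcl1, which encodes a survival protein of the BCL2 family, at 5047 ± 540 TPM (SD, n = 2), then Klf4, a naive pluripotency factor, at 665 ± 5.65 TPM, and Pim1, a kinase, at 187 ± 17.8 TPM. With exonic length Mcl1 stood at 1262 ± 86.8, Klf4 at 225 ± 6.73 and Pim1 at 51.0 ± 6.82 TPM. Socs3 was the fourth of the 14 by span TPM. The lowest with span length was Bcl3, a nuclear regulator of NF-kB, with 41 and 10 counts. The list was not defined in these cells, and its levels say nothing about how much of them is owed to STAT3.

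**Figure D2:**
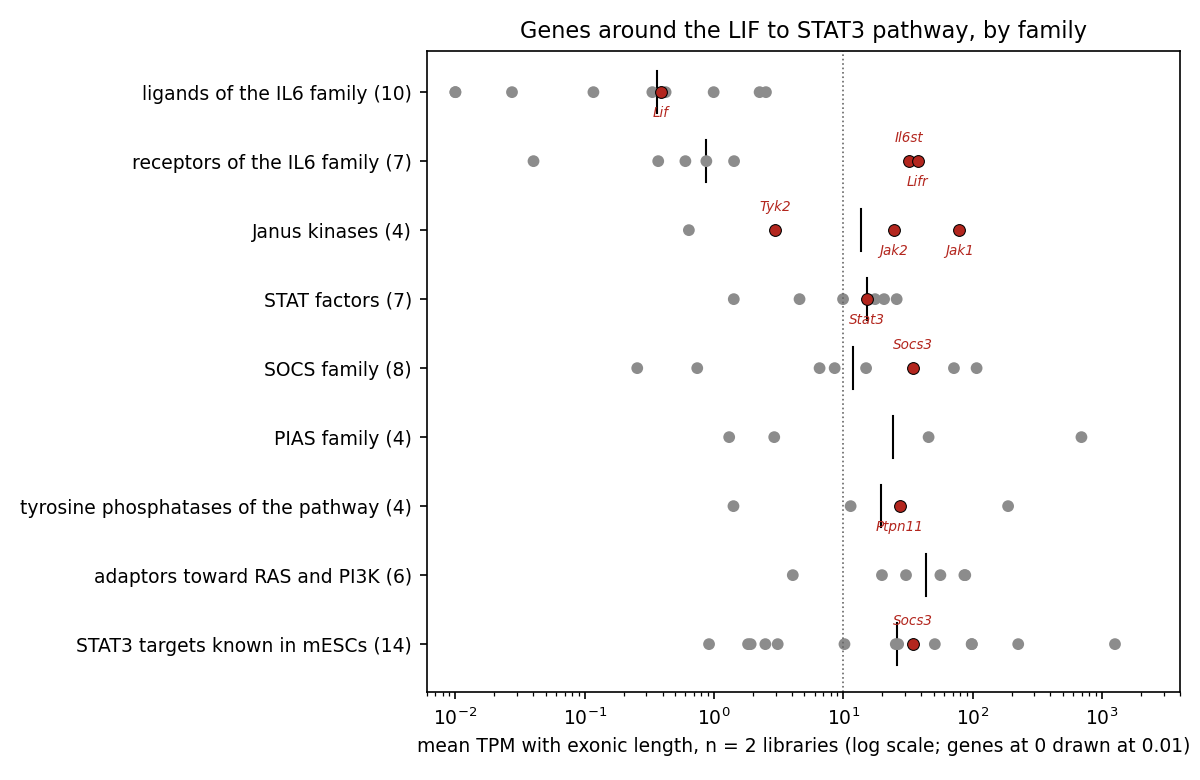
Mean exonic TPM over 2 libraries on a log axis for 63 genes around the pathway, in 9 families named with their number of genes. Red points are members, grey points other genes, the short black line is the family median, the dotted line marks 10 TPM and genes at 0 are drawn at 0.01. Lifr and Il6st stand apart from the other receptors, at 37.6 and 32.1 TPM, and no ligand reaches 10 TPM.

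The counts of the members differed between the 2 libraries in most cases. In a two-sided exact binomial test against the ratio of library totals, adjusted over 14536 genes with at least 10 counts, 8 of 9 members passed at 0.05. Over all genes 60.8% passed, so a difference of this kind was common in the table. Replicate 2 was the lower library for 7 of the members, against 45.7% of all genes. Lifr was the only member that passed as higher in replicate 2, against 15.1% of all genes. The test compares these 2 libraries and no conditions. The libraries also stood apart in ES cell markers, of which 13 of 15 passed as lower and 1 as higher in replicate 2. Pou5f1, the core pluripotency factor, had 1129 and 142 counts, a log2 ratio of −2.76, and Dppa5a had 2915 and 298, a log2 ratio of −3.06, while Nanog was at −0.18. The part of this difference in the ratios of the members was not tested.

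Ptpn11 differed at a log2 ratio of −0.74 (counting interval −0.87 to −0.61, adjusted p = 2.81e-29, exact binomial test). Socs3 differed at −0.90 (−1.08 to −0.72, adjusted p = 1.51e-24, exact binomial test), and Tyk2 at −1.12 (−1.56 to −0.70, adjusted p = 1.09e-07, exact binomial test). Il6st, Stat3 and Jak1 were lower in replicate 2 by less, at −0.30, −0.41 and −0.13. Lifr was higher, at 0.20 (0.12 to 0.28, adjusted p = 2.7e-06, exact binomial test). Jak2 did not pass, at 0.09 (−0.05 to 0.23, adjusted p = 0.257, exact binomial test). Over the 9736 genes for which neither library had under 50 counts, the median log2 ratio was −0.17 and the SD 0.53, and the 8 members with such counts had a median of −0.36. Of the 54 listed pathway genes outside the members, 48 had enough counts for the test, of which 22 were lower and 5 higher in replicate 2 and 21 did not pass. The absolute ratio of Tyk2 exceeded that of 92.4% of the 9736 genes and that of Jak2 exceeded that of 16.5%.

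**Figure D3:**
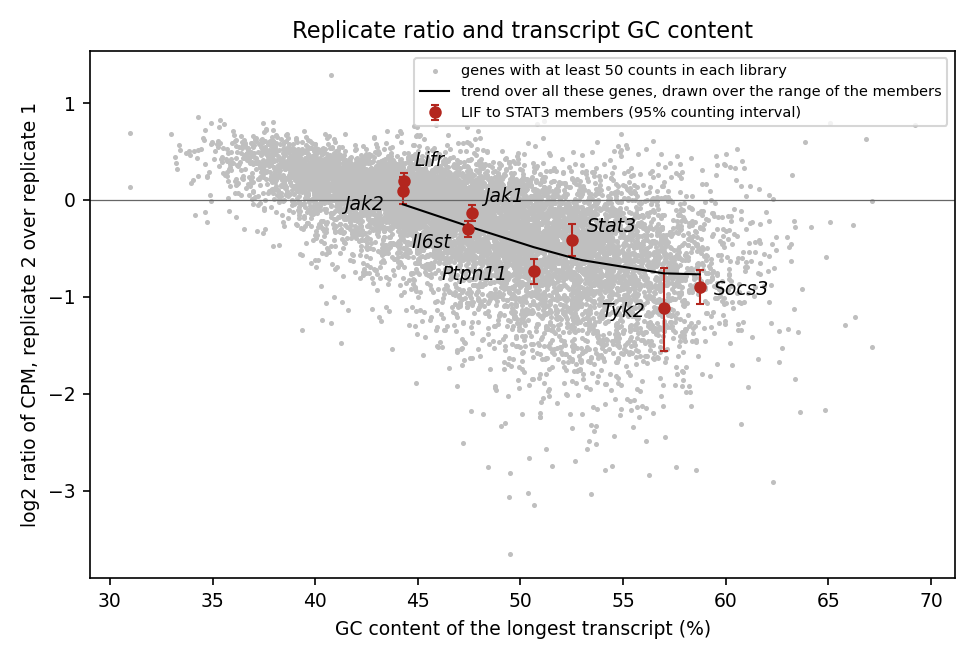
Log2 ratio of CPM, replicate 2 over replicate 1, against the GC content of the longest transcript for 9690 genes with 50 counts or more in both libraries (grey) and the 8 members among them (red, with 95% counting intervals). The black line is the trend over all these genes, drawn over the GC range of the members. Lifr and Jak2, with the lowest GC content of the members, lie highest, and Socs3 and Tyk2, with the highest, lie lowest.

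The size of these differences went with the base composition of the transcripts. The GC content of the longest transcript was 44.3% for Jak2, 44.4% for Lifr, 47.4% for Il6st, 47.6% for Jak1, 50.6% for Ptpn11, 52.5% for Stat3, 57.0% for Tyk2 and 58.7% for Socs3. Over these 8 members the Spearman's rho of the log2 ratio with GC content was −0.90, and over the 9690 genes with a GC value it was −0.65. These are correlations across genes that share the same 2 libraries, and are given as a description. The 2287 genes within 2 percentage points of the GC content of Lifr had a median log2 ratio of −0.01, and the 513 genes within 2 points of Socs3 had a median of −0.73. Socs3, at −0.90, lay between the quartiles of the genes of like GC content (−1.04 to −0.39), as did Il6st, Jak1, Jak2, Stat3 and Ptpn11 in their own windows. Lifr lay above the upper quartile of 0.17, and Tyk2 below the lower quartile of −1.06.

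After a GC trend fitted over these 9690 genes was taken out, 3 of 9 members still differed between the libraries, against 45.4% of all genes. Lifr stayed higher in replicate 2, at a log2 ratio of 0.25 (adjusted p = 3.64e-09, exact binomial test), and Ptpn11 stayed lower, at −0.25 (adjusted p = 0.000436, exact binomial test). Jak1 turned from lower to higher, at 0.15 (adjusted p = 0.000628, exact binomial test). Socs3 was then at −0.13 (adjusted p = 0.245, exact binomial test), Tyk2 at −0.36 and Lif at −1.70, and none of these passed. The SD of the ratios of the 8 members with at least 50 counts was 0.47 before and 0.22 after the trend was removed. Over all genes with such counts the SD of the ratio was 0.53 before and 0.42 after. TMM factors raise every log2 ratio by 0.26 and put 3 members higher in replicate 2, namely Lifr, Jak1 and Jak2, and 4 lower, against 28.8% and 28.9% of all genes. DESeq2 size factors put the same 3 members higher and the same 4 lower, against 31.6% and 26.1% of all genes, and these 4 were Lif, Tyk2, Socs3 and Ptpn11. Lifr was higher and Ptpn11 lower in replicate 2, past the threshold, with total counts, with TMM factors, with DESeq2 size factors and with the GC trend removed.

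**Figure D4:**
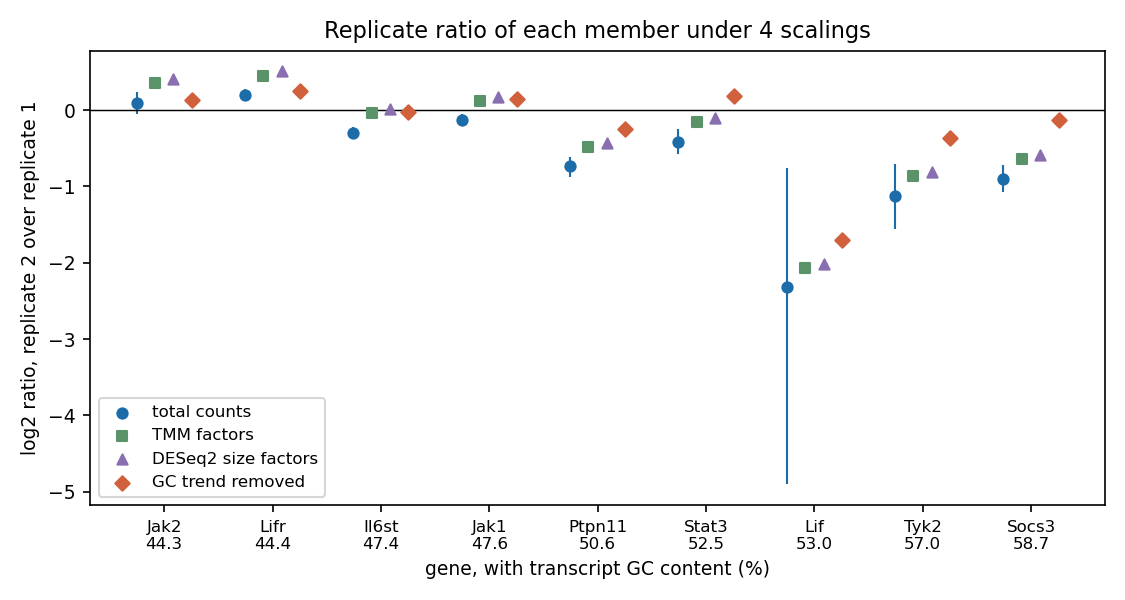
Log2 ratio of replicate 2 over replicate 1 for the 9 members, ordered by the GC content of the transcript given under each name. Circles use total counts with a 95% counting interval, squares TMM factors, triangles DESeq2 size factors and diamonds the ratio with the GC trend removed. Lifr and Jak2 stay above 0 and Ptpn11, Tyk2, Socs3 and Lif stay below 0 under all 4, while Il6st, Jak1 and Stat3 change sides.

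The spread between replicates sets how far these levels can be read. The biological coefficient of variation of edgeR was 0.277 over 12648 genes. Jak1 had the smallest SD relative to its mean on both length scales, with span TPM of 17.6 and 18.0 in the 2 libraries. Lif and Tyk2, the members with the fewest counts, had the largest, and Socs3 and Ptpn11 followed. None of the 9 members overlaps another annotated gene on its own strand, so that no member lost fragments to such an overlap. Jak1 overlaps Raver2 on the opposite strand over 398 bp, and counting by strand separates the pair.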

How the data were processed

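Messenger RNA was isolated on oligo-dT beads and sequenced in 2 libraries of one group. Per the file headers, the authors counted whole read pairs with featureCounts (version 1.5.2) in reverse-stranded mode over transcript spans of a non-redundant long RNA annotation on mm10, and the deposited counts are raw. The submitters' processing notes also name Bowtie2 (2.3.2) and STAR (2.4.2a). For its chromatin RNA libraries the study removed ribosomal reads with the former and aligned the rest with the latter to mm10 with N at polymorphic bases, keeping reads with a single position. Whether these mRNA libraries were mapped in that way is not given in the sources used here. Counts by gene do not separate isoforms or alleles. A count column was matched to its sample by the name in the sample description, from which it differs by a letter b and by separators. The length deposited by the authors, classed as an other unit, is the transcript span in bases, introns included. Its start positions lie 1 base below the RefSeq start for 6 of 9 members and 12332 of 21079 genes, so starts printed here may be 1 base low. The RefSeq spans of Lifr, Socs3, Tyk2 and Stat3 reach further upstream than the deposited ones.

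TPM was computed per library from counts per kb and averaged, as in the study's methods, with that span or with the union of exons of GENCODE M21 basic (GRCm38, the assembly of mm10), which was matched for 98.1% of genes by current or older symbol and for all 9 members. GC content came from the longest GENCODE transcript. Replicates were compared gene by gene with a two-sided exact binomial test in scipy (1.17.1) and Benjamini-Hochberg adjustment over all genes with at least 10 counts in total. Log2 ratios used CPM after adding 0.5 counts. Intervals and floors cover counting error only, since no molecular identifiers are described and reads may be copies of 1 molecule. TMM factors and the common dispersion came from edgeR (4.0.16, R 4.3.3) with an intercept-only design, and size factors from DESeq2 (1.42.0). The GC trend was a polynomial of degree 3 over genes with 50 counts or more in both libraries. The binomial test and the dispersion estimate were checked on simulated data. For the binomial test these had counting noise only, with no GC trend and no added spread between replicates. That check therefore does not cover the spread seen between these 2 libraries. Promoter sequences are from RefSeq (GRCm38.p6).

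The members and the lists of pathway and marker genes were chosen with earlier results of these data known, so they are no independent evidence. Named genes are the 9 members, all genes of the ligand, receptor, Janus kinase, STAT, SOCS and phosphatase lists, and of the other lists the 3 highest and the lowest by mean TPM with span length. Some genes of these lists are not reported here. With 2 libraries a pattern over samples is a single ratio, so no gene was named for a like pattern. Alternatives were exonic length, no length, other thresholds and filters, other library scalings and single replicates.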

Additional observations from a re-analysis of the deposited data

How the results depend on the processing

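No paired analysis was possible because both libraries belong to the same group. Of 94 alternative values, 55 kept a result within its replicate spread, on its side of the threshold or within a factor of 1.5, whichever applied. Some of these could not have come out otherwise, so the 55 are no measure of robustness. A single replicate always lies within the replicate SD of a mean TPM, and the ratio after adding 5 counts kept the call of the main test by construction. The number of members at 10 TPM or more was 6, fell to 1 with at least 50 TPM, and was 6 in either replicate alone. The number of members beyond sampling noise was 8, and 3 with the GC trend removed. The biological coefficient of variation was 0.317 with total counts only. With exonic length, list medians moved to 13.7 TPM for the Janus kinases, 15.1 for the STAT factors, 11.8 for the SOCS family, 24.3 for the PIAS family, 19.4 for the phosphatases, 43.5 for the adaptors and 26.0 for the STAT3 targets. The log2 ratio reversed to 0.014 for Il6st with DESeq2 size factors and to 0.18 for Stat3 with the GC trend removed. That of Jak1 reversed to 0.12 with TMM factors, 0.18 with DESeq2 size factors and 0.15 with the GC trend removed. These settings shift or rescale the ratios by construction. Low counts limit Lif most, whose log2 ratio was −1.42 after adding 5 counts.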

Other observations

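The adaptors that link the receptor to RAS and PI3K, and the PIAS proteins that restrain STAT factors, were expressed beside the members. Of 6 adaptor genes, 4 reached 10 span TPM and 5 reached 10 exonic TPM. Sos1, an exchange factor that activates RAS, led the list, at 43.9 ± 8.40 span TPM (SD, n = 2), with 4884 counts in each library. Shc1, an adaptor that recruits GRB2, followed at 34.4 ± 0.928 span TPM and Gab1, a docking protein that binds SHP2, at 19.6 ± 1.35 span TPM. The lowest was Gab2 at 0.576 ± 0.0721 span TPM. The value of Shc1 is uncertain, because 12.9% of the 50-base words of its longest transcript also occur in pseudogene transcripts.

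Pias2 stood far above the other PIAS genes, with 15931 and 16692 counts, or 141 ± 31.5 span TPM (SD, n = 2) and 695 ± 129 exonic TPM. It shared 0.498% of its 50-base words with pseudogene transcripts and overlapped no other gene of the table on either strand. Pias1 was at 15.1 ± 1.64, Pias3, named for its binding to STAT3, at 4.78 ± 2.88 and Pias4 at 1.27 ± 0.426 span TPM. Myc, a STAT3 target in mESCs, had 20 and 11 counts, or 2.31 ± 0.528 span TPM and 0.916 ± 0.243 exonic TPM. It was chosen after its values were seen.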
